A study of Homo sapiens with 6 samples.

Results

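Haemoglobin carries oxygen as a tetramer that pairs alpha-like with beta-like globin chains, and the 10 globin genes that encode these chains were followed here in whole cells and in the vesicles they release. The members were taken by gene symbol from the 68201 genes of the count table. HBA1, HBA2, HBZ, HBM and HBQ1 lie in the alpha-globin locus on chromosome 16, and HBB, HBD, HBG1, HBG2 and HBE1 lie in the beta-globin locus on chromosome 11. Of the 10 genes 8 had enough reads to be tested, 4 of each locus, while HBM had no read in any library and HBE1 had 5 reads in all.

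RNA came from K-562, an established line of human chronic myeloid leukaemia cells that grows in suspension and keeps erythroid features. The 2 groups were whole cells (WC, n = 3 libraries) and extracellular vesicles (EVs, n = 3 libraries) that the same cultures shed into medium with vesicle-depleted serum and that were isolated by size exclusion chromatography. All cells were wild type and untreated, and all values come from this 1 cell line. cDNA was primed at poly(A) tails, amplified by PCR and read on nanopore flow cells, each of which carried the WC and the EV library of 1 replicate, so the numbers 1 to 3 pair the libraries.

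In both loci the genes stand broadly in the order in which they are used during development. HBZ and HBE1 encode the embryonic zeta and epsilon chains, HBG1 and HBG2 the fetal gamma chains, HBA1 and HBA2 the alpha chains used from fetal life on, and HBB and HBD the adult beta and delta chains. HBM and HBQ1 encode the mu and theta chains, which have no established part in haemoglobin. K562 cells are widely used to study embryonic and fetal globin genes because they make little or no adult beta chain.

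Gene counts summed to between 2480560 and 3178211 in WC and between 560157 and 881338 in EV libraries. Of 7 erythroid markers all had reads, with a summed level of 366 to 396 CPM (counts scaled to library size and TMM factor) in WC and 266 to 353 CPM in EV libraries. Among them 1 rose and 1 fell, beside 22.8% and 21.4% of all genes tested. Of the megakaryocyte markers GP9, PF4 and PPBP had no read in any library, and the same was true of CD79A and MS4A1 of the B-cell list and of all 3 hepatocyte markers. The summed level of the 4 megakaryocyte markers was 45.7 to 59.6 CPM in WC and 4.57 to 11.6 CPM in EVs, and that of the 3 B-cell markers was 2.81 to 4.12 and 0 to 2.74 CPM. The 3 T-cell markers all had reads, with 24.1 to 30.4 CPM in WC and 27.4 to 50.9 CPM in EV libraries, and the 3 monocyte markers had 1.53 to 4.12 and 0 to 4.57 CPM. The part of other RNA sources in the globin values was not tested. In such bulk RNA, fewer vesicles that carry a transcript and fewer copies per vesicle cannot be told apart.

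Several globin genes are nearly the same in sequence or share exons with other annotated genes, which bears on every count given here. Coding sequences of HBA1 and HBA2 were 100% identical over 426 nt, those of HBG1 and HBG2 were 99.5% identical over 441 nt, and those of HBB and HBD were 93.0% identical. The coding part of exon 3 of HBG1 (hg38 chr11:5248362-5248487, minus strand) and of HBG2 (chr11:5253280-5253405, minus strand) is shown because reads of the gamma genes are told apart by so few bases. It differs at C95G, counted from 1 at the first base shown with the base of HBG1 first, and the capital marks that base.
HBG1: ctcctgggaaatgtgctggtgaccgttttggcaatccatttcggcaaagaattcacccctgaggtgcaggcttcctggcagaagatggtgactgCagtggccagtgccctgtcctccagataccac
HBG2: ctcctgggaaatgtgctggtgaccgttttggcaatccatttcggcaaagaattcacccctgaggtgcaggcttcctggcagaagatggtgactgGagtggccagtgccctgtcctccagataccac

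The alpha genes can be told apart in the 3' untranslated region. The 30 bases that begin at base 18 after the stop codon of HBA1 (chr16:177429-177458, plus strand) and HBA2 (chr16:173618-173647, plus strand) are shown because they differ at 9 positions, printed in capitals.
HBA1: cAtGcTtcTtgcccCTtgggcctcccCCcA
HBA2: cGtTcCtcCtgcccGCtgggcctcccAAcG

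Exon 2 of HBZ (chr16:153892-154096, plus strand) lies as a whole inside an annotated exon of HBM on the same strand. Its 205 bases are shown in capitals because a read within them fits both genes.
HBZ: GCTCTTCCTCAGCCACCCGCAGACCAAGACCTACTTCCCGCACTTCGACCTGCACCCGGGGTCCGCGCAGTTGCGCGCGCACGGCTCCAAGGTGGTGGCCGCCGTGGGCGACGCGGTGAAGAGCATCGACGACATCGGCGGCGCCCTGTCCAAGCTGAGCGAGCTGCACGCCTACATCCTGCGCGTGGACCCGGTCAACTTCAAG

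Shared exon sequence differed widely between the members. Of the canonical transcript of HBE1 91.5% overlapped exons of ENSG00000239920, a gene on the same strand, and of HBG2 73.5% overlapped exons of ENSG00000284931, a gene that joins exons of HBG2 and HBG1, or of ENSG00000239920. For HBG1 the shared part was 37.1% (ENSG00000284931), for HBZ 25.7% (HBM), and for HBA1 and HBA2 30.8% and 27.6%, each with a gene on the opposite strand (ENSG00000290010 and ENSG00000290038). The canonical transcripts of HBQ1, HBB, HBD and HBM shared none. The study left reads from regions of several genes unassigned as ambiguous, and its settings for strand and for reads that map to several places are not given in the sources used here. The counts below are thus those of the reads assigned to a gene, and how many were left out for each globin was not tested.

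All 8 tested globin genes were higher in EVs than in WC libraries at an adjusted p under 0.05 (quasi-likelihood test of edgeR, Benjamini-Hochberg adjustment over 8716 genes), 4 of 4 in the alpha and 4 of 4 in the beta locus, and none fell. Over all genes tested, 22.8% rose and 21.4% fell, and among 511 protein-coding genes with a canonical transcript of at most 1000 nt, the size class of the globins, 48.5% rose. HBB and HBZ were admitted to the test by their EV libraries alone, since no WC library reached the level of 5.95 CPM by library total that the filter asks of 3 libraries. A direction set in this way is no evidence, and their counts below are a description. The other 6 genes, HBG2, HBG1, HBD, HBA1, HBA2 and HBQ1, reached that level in all 6 libraries, and 6 of 6 rose, beside 31.8% of the 4917 genes that reached it in all libraries. Of these 6 HBG2 met the study's limits for enrichment in EVs (log2 fold change 2 or more, adjusted p 0.01 or less), and HBB and HBZ met them too, as did 4.53% of all genes tested. The 3 EV values lay above all 3 WC values for HBG2, HBB, HBZ and HBD, as for 24.9% of all genes, and the groups overlapped for HBA1, HBA2, HBG1 and HBQ1. Without HBB and HBZ the median log2 fold change was 1.27 over 6 members, 1.26 over 3 alpha-locus and 1.34 over 3 beta-locus genes, beside 0.16 over the 4917 genes. With them the medians were 1.31, 1.27 and 2.82, beside -0.13 over all genes tested, so the distance between the loci rests on HBB. HBA1 and HBA2, identical in coding sequence, had nearly the same counts in each library. They are not independent members of the counts and medians given here.

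The scaling between groups sets how many of these calls hold. TMM factors correct library totals for composition, and they lay between 1.2 and 1.31 for WC but between 0.765 and 0.839 for EV libraries. With library totals alone the median of all genes moved to -0.78, the share of genes that rose fell to 12.2% and the share that fell rose to 51.6%. With that scaling 3 of the 8 members rose, HBG2, HBB and HBZ, and none of the other 5 fell.

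**Figure D1:**
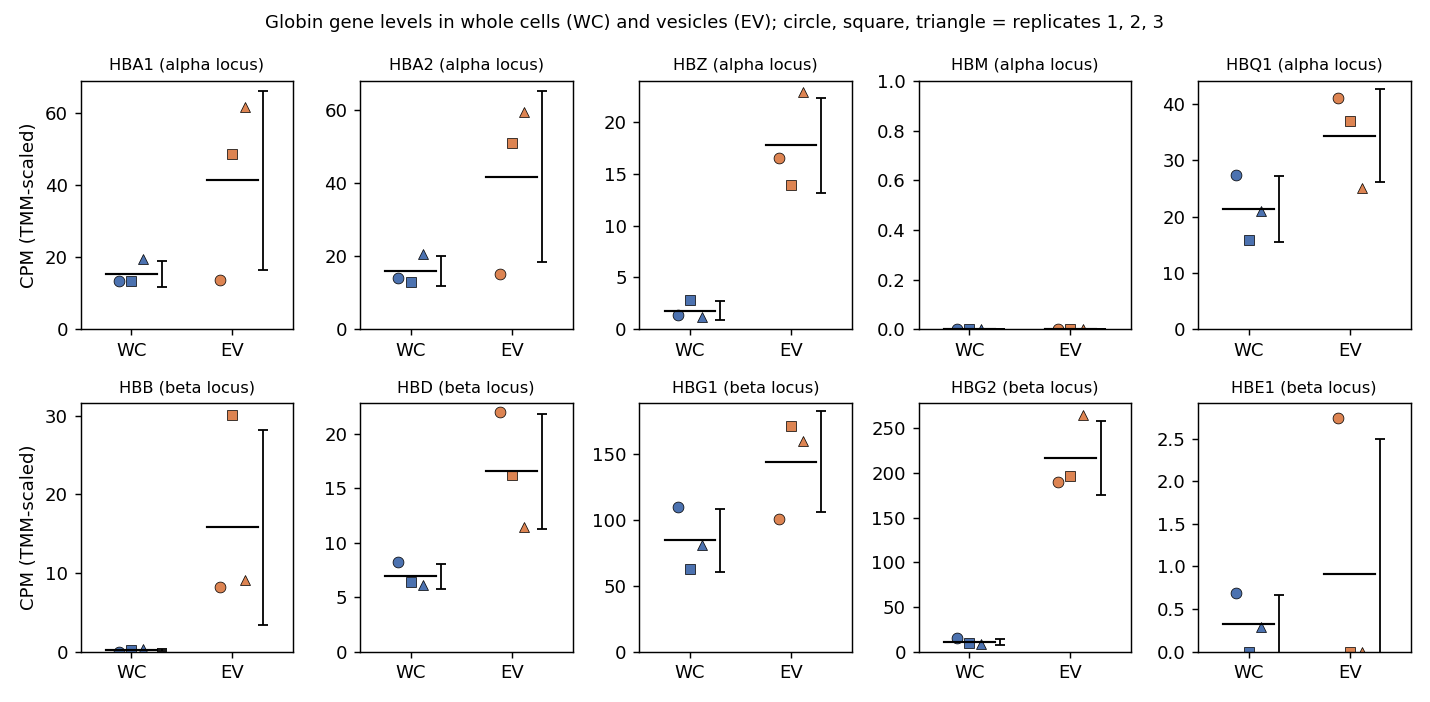
Level of each globin gene in CPM (vertical axis, from 0, with its own scale per gene) in the 3 WC (blue) and 3 EV (orange) libraries, with circle, square and triangle for replicates 1 to 3, a line for the mean and a bar of 1 SD to each side. The 3 EV values of HBG2, 189 to 265 CPM, stand far above its WC values, and EV replicate 1 is the lowest EV library for HBA1, HBA2 and HBG1.

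HBG2, a fetal gamma gene, had the change with the lowest adjusted p among the members. It was counted at 15.1, 9.96 and 8.14 CPM in the WC libraries 1 to 3 and at 189, 197 and 265 CPM in the EV libraries 1 to 3. Every EV library stood far above every WC library, with no overlap. The means were 11.1 ± 3.62 CPM in WC and 217 ± 41.7 CPM in EVs (SD, n = 3 each), which edgeR put at 4.30 on the log2 scale (SE 0.23, adjusted p = 1.0e-13). Over all 8716 genes tested 15 had a larger log2 fold change.

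HBG1, the gamma gene next to it, had the most reads of all members in WC. Its levels were 110, 62.3 and 80.9 CPM in WC and 100.1, 171 and 160 CPM in EV libraries. EV replicate 1 lay below WC replicate 1, so the groups overlapped. The means were 84.2 ± 23.8 and 144 ± 38.1 CPM (SD, n = 3 each), or 0.75 on the log2 scale (SE 0.22, adjusted p = 0.0089, edgeR). Over the alternatives its adjusted p ranged from 0.00017 to 0.73. This call was lost with DESeq2 (adjusted p = 0.084), with total-count scaling (log2 fold change 0.09, adjusted p = 0.73), with WC libraries thinned to the EV depth (adjusted p = 0.12), without the filter on low counts (adjusted p = 0.051) and without any of WC replicate 2, WC replicate 3, EV replicate 2 or EV replicate 3 (adjusted p = 0.11, 0.053, 0.067 and 0.051).

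In the reads assigned to them, the gamma genes exchanged places between cells and vesicles. HBG1 had 319, 244 and 278 reads in WC and 73, 74 and 70 in EV libraries, while HBG2 had 44, 39 and 28 and then 138, 85 and 116. The log2 ratio of HBG2 to HBG1 reads was -2.84, -2.63 and -3.29 in WC and 0.91, 0.20 and 0.72 in EVs, so HBG1 led in each WC library and HBG2 in each EV library. The mean ratio differed by 3.53 on the log2 scale (exact two-sided permutation test, p = 0.1, below which 3 libraries a group cannot go, and 0.4 after adjustment over 4 ratios). Without EV or WC replicates in turn the difference was 3.35 to 3.74. Added together before the test, a choice made after the data were seen, HBG1 and HBG2 reached 95.3 ± 26.8 CPM in WC and 361 ± 68.0 CPM in EVs (SD, n = 3 each), and edgeR gave 1.92 on the log2 scale (SE 0.20, adjusted p = 2.1e-08). The 3 sums in EVs lay above the 3 in WC. The shared part of HBG2 and HBG1 given above, 73.5% and 37.1% of the transcript, goes with these counts, and its part in the exchange was not tested. Per the paper, mapped reads had a shorter median length in EVs than in WC. The part of read length in which reads were assigned was not tested either.

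HBB, the adult beta gene, was nearly absent from the cells. It had 0, 1 and 1 reads in the WC and 6, 13 and 4 in the EV libraries. At 2 reads in the WC libraries together, its fold rests on counting error: per scaled read the EV libraries held 74.5 times as many (exact Clopper-Pearson 95% interval 18.4 to 652, which covers counting error only). The adjusted p of edgeR was 4.2e-07 after a filter that HBB passed through its EV libraries, and 5.9e-12 without a filter. In EVs the levels were 8.23, 30.1 and 9.13 CPM, so replicate 2 stood above the other two. The canonical transcript of HBB overlaps no exon of another counted gene, and HBD is its closest relative in sequence among the members.

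HBD, the minor adult delta gene, had 24, 25 and 21 reads in WC and 16, 7 and 5 in EV libraries. This gave 8.24, 6.38 and 6.11 CPM in WC and 21.9, 16.2 and 11.4 CPM in EVs, without overlap. The means were 6.91 ± 1.16 and 16.5 ± 5.27 CPM (SD, n = 3 each), or 1.34 on the log2 scale (SE 0.37, adjusted p = 0.0049, edgeR). Over the alternatives its adjusted p ranged from 0.0046 to 0.14. The call was lost with total-count scaling (adjusted p = 0.10) and without EV replicate 1 (log2 fold change 0.97, adjusted p = 0.14).

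HBE1, the embryonic gene at the head of the beta locus, had 2, 0 and 1 reads in WC and 2, 0 and 0 in EV libraries. A ratio over so few reads is not informative: 4.32 times as many per scaled read in EVs, with an interval of 0.36 to 37.7. No difference was detectable with these assigned reads. Of its canonical transcript 53 nt lay outside exons of ENSG00000239920. That gene, which also overlaps 45.7% of the HBG2 transcript, had 4, 11 and 15 reads in WC and 0, 0 and 1 in EV libraries. What part of these reads belongs to HBE1 was not tested.

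HBZ, the embryonic alpha-like gene, was the alpha-locus member with the largest fold. It had 4, 11 and 4 reads in WC and 12, 6 and 10 in EV libraries, or 1.37, 2.81 and 1.16 CPM and 16.5, 13.9 and 22.8 CPM. The lowest EV library lay above the highest WC library. The means were 1.78 ± 0.895 and 17.7 ± 4.61 CPM (SD, n = 3 each), or 3.20 on the log2 scale (SE 0.45, adjusted p = 2.3e-06, edgeR). HBZ entered this test through its EV libraries. Without a filter on low counts, where every gene with a read is tested, the change was 3.00 (adjusted p = 6.2e-08).

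HBA1 and HBA2, the alpha genes proper, moved together. HBA1 was counted at 13.4, 13.3 and 19.5 CPM in WC and at 13.7, 48.6 and 61.6 CPM in EV libraries. HBA2 was counted at 14.1, 13.0 and 20.7 CPM in WC and at 15.1, 50.9 and 59.4 CPM in EV libraries. EV replicate 1 lay within the WC range for both genes, and EV replicates 2 and 3 lay above it. The log2 fold changes were 1.28 for HBA1 (SE 0.38, adjusted p = 0.012, edgeR) and 1.26 for HBA2 (SE 0.37, adjusted p = 0.010, edgeR). Over the alternatives the adjusted p of HBA1 ranged from 8.9e-07 to 0.15. Without EV replicate 1 the changes were 1.81 and 1.76, and without EV replicate 3 they were 0.82 and 0.87, no longer past the threshold (adjusted p = 0.11 and 0.087). Both calls were also lost with total-count scaling (adjusted p = 0.15 for each), without WC replicate 1 (adjusted p = 0.054 and 0.052) and without EV replicate 2 (adjusted p = 0.065 and 0.060).

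The ratio of HBA2 to HBA1 stayed near 1 in every library, with log2 values between -0.05 and 0.13. It was 0.04 ± 0.061 in WC and 0.05 ± 0.094 in EVs (SD, n = 3 each), a difference of 0.0056 (exact two-sided permutation test, p = 1). Their coding sequences are identical, so only the untranslated parts, such as the stretch shown above, can tell their reads apart. HBA1 had 39, 52 and 67 reads and HBA2 41, 51 and 71 in WC libraries. In EV libraries they had 10, 21 and 27 and 11, 22 and 26. Whether reads were told apart, or the same reads counted on both genes, was not tested. Reads counted on both would be repeated in the sum that follows. Added together, HBA1 and HBA2 reached 31.3 ± 7.67 CPM in WC and 83.1 ± 48.2 CPM in EVs (SD, n = 3 each), and edgeR gave 1.31 on the log2 scale (SE 0.45, adjusted p = 0.044).

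HBQ1, the theta gene, had 80, 62 and 72 reads in WC and 30, 16 and 11 in EV libraries, or 27.5, 15.8 and 20.9 CPM and 41.2, 37.0 and 25.1 CPM. EV replicate 3 lay below WC replicate 1, so the groups overlapped. The log2 fold change was 0.74 (SE 0.28, adjusted p = 0.035, edgeR), and with the replicate number as a block it was 0.69 (adjusted p = 0.053). HBQ1 kept its call in 4 of 13 alternatives, with adjusted p from 0.014 to 0.79, and the call was lost in others that include DESeq2 (adjusted p = 0.22), total-count scaling (log2 fold change 0.09, adjusted p = 0.79) and leaving out EV replicate 1 (adjusted p = 0.24) or WC replicate 2 (adjusted p = 0.22). HBM, the mu gene, had 0 reads in all 6 libraries, which allows up to 0.359 CPM over the WC and 1.48 CPM over the EV libraries (3 reads of the group total). Since HBM and HBZ share an exon, unassigned reads there are not covered by this limit.

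**Figure D2:**
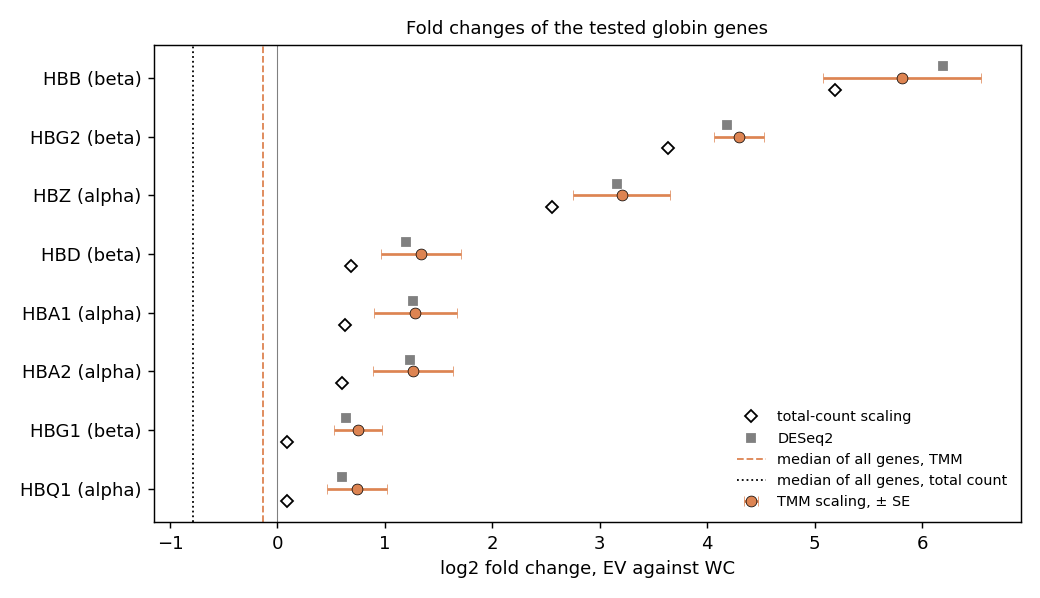
Log2 fold change of EVs against WC (horizontal axis) for the 8 tested globin genes, as orange points with the SE of edgeR under TMM scaling, open diamonds under total-count scaling and grey squares from DESeq2, with the median of all genes tested as a dashed (TMM, -0.13) and a dotted line (total count, -0.78). HBB, HBG2 and HBZ stay above 2 in each, while HBG1 and HBQ1 come to 0.09 under total-count scaling.

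Per exon length, in TPM (reads per exon length scaled to the library, without TMM, for comparing genes within a group), HBG1 led in WC with 54.9 ± 13.1, followed by HBQ1 with 38.8 ± 9.03 (SD, n = 3). The library ranges of HBG1 and HBQ1 overlapped. Exon length here was that of all annotated exons of a gene. It was 1467 nt for HBG1, beside a canonical transcript of 587 nt, and 841 nt for HBG2, beside 586 nt. For HBQ1 both were 528 nt, so the order of these genes depends on the length chosen. HBA2 (18.7 ± 5.98), HBA1 (17.9 ± 5.25) and HBG2 (12.5 ± 3.23) came next, each overlapping its neighbour. HBD (5.74 ± 0.595) and HBZ (1.48 ± 0.747) stood clear of their neighbours on either side. HBE1 (0.317) and HBB (0.139) overlapped each other near 0.

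In EVs HBG2 led with 126 ± 17.2 TPM, with no library of HBG1 (47.7 ± 9.93) reaching its lowest value. From HBG1 down each gene overlapped the next: HBQ1 (32.6 ± 10.0), HBA2 (24.2 ± 12.6), HBA1 (23.6 ± 13.2), HBZ (5.75 to 9.10 over its libraries), HBD (7.20 ± 2.87) and HBB (5.91 ± 4.48). HBE1 was below them at 0.513 TPM. HBG2 thus moved from place 5 to place 1 among the members, and the other genes with more than 10 TPM kept their order.

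Globin genes took a small share of all counts, and a larger one in EVs. They held 0.0223%, 0.0153% and 0.0201% of the gene counts in the WC libraries and 0.0338%, 0.0436% and 0.0463% in the EV libraries, without overlap. The mean was 0.0192% ± 0.0036% in WC and 0.0412% ± 0.00657% in EVs (SD, n = 3 each). Beta-locus genes went from 0.0125% ± 0.00299% to 0.0307% ± 0.00361%, and the groups were apart. Alpha-locus genes went from 0.0067% ± 0.0012% to 0.0105% ± 0.00296%, and the groups overlapped. Gene by gene and by library total, only HBG2, HBB and HBZ were higher in EVs without overlap. The groups overlapped for HBG1, HBD, HBA1, HBA2 and HBQ1. Whether the globin or beta-locus share would stay apart without HBG2 was not tested.

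The alpha locus supplied a smaller part of the globin reads in EVs. Its share was 29.7%, 36.3% and 39.4% in the WC and 21.1%, 26.6% and 27.5% in the EV libraries, so each EV library lay below each WC library. The means were 35.1% ± 4.98% and 25.1% ± 3.45% (SD, n = 3 each), over 485 to 553 globin reads per WC and 244 to 298 per EV library. With reads divided by the length of all annotated exons the share was 51.2% ± 4.79% in WC and 31.7% ± 3.07% in EVs, also without overlap. That length is 1467 nt for HBG1, beside a canonical transcript of 587 nt, which lowers the part of HBG1. The level of this share thus depends on the length chosen. HBG2 went from 7.05% ± 1.64% to 41.4% ± 5.92% of the globin reads and HBG1 went from 53.1% ± 4.03% to 26.9% ± 3.02%. HBQ1 went from 13.5% ± 0.868% to 6.90% ± 3.00%. These shares add to a whole, so a larger share of a gene lowers the others. In the beta locus only HBG2 and HBB (0.13% and 2.94%) took a larger share in EVs without overlap, and HBG1 took a smaller one. The lower alpha-locus share thus goes with the larger share of HBG2. Whether it would remain lower without HBG2 was not tested.

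**Figure D3:**
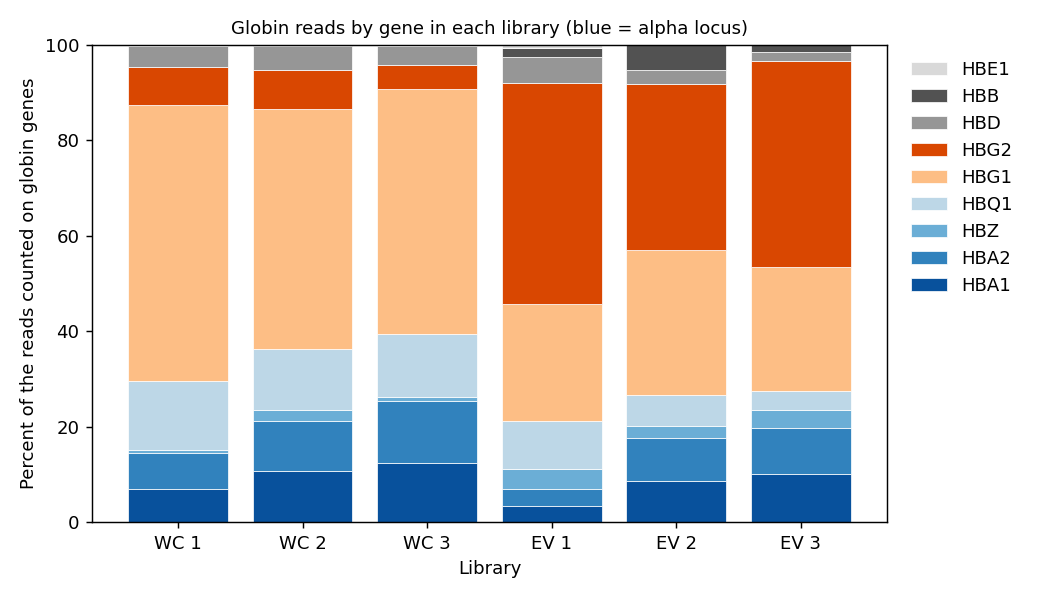
Percent of the reads counted on globin genes (vertical axis) that fell on each gene in each WC and EV library, with alpha-locus genes in blues at the bottom and beta-locus genes above. HBG1 holds 50.3% to 57.7% in WC, and HBG2 holds 34.8% to 46.3% in EVs.

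Set against the gamma genes, the alpha genes proper took values that overlapped between the groups. The log2 ratio of HBA1 plus HBA2 to HBG1 plus HBG2 was -2.17, -1.45 and -1.15 in WC and -3.30, -1.87 and -1.80 in EV libraries, with overlap (difference -0.73, exact two-sided permutation test, p = 0.3, adjusted 0.6). Within replicate pairs the ratio was lower in the EV library in 3 of 3, by -1.12, -0.42 and -0.66 (exact paired permutation test, added after the data were seen, p = 0.25, below which 3 pairs cannot go). The embryonic pair HBZ to HBE1, with 0.5 added to each count because HBE1 had libraries without a read, differed by 1.15 (exact two-sided permutation test, p = 0.5, adjusted 0.67). With 3 libraries a group the spread of this pair, 1.94 in WC and 1.05 in EVs (SD), was larger than the difference in WC and close to it in EVs.

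Isoform models give another view of the same reads, as authors' means over all 6 libraries, so without groups or replicates. The alpha locus had 10 models, 6 of them in the table of isoform levels, and each of the 10 was classed as productive, which means an open reading frame without an early stop. The beta locus had 50 models, 25 in the table, of which 36 were productive, 8 had a premature stop codon, 4 had no start codon and 2 had no stop codon. In the beta locus, counted with the pseudogene HBBP1, 11 models held exons of at least 2 of the 5 member genes, and they carried 78.0% of the isoform level of the locus, while the alpha locus had none.

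The models of the alpha locus were simple. HBA1 had 2 isoforms, the canonical one of 559 nt at 779 normalised reads and one of 510 nt at 102, and HBA2 had the matching pair of 558 nt at 522 and 509 nt at 68.7. HBZ and HBQ1 had 1 isoform each, of 568 nt at 251 and of 528 nt at 36.7 normalised reads. These 6 isoforms with a level had 3 exons each, and the 4 models without a level had 2.

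In the beta locus the highest isoform belonged to no member. A model of 586 nt and 3 exons assigned to ENSG00000284931, made of exons of HBG2 and HBG1, stood at 1224 normalised reads, and all isoforms of that gene together at 1370. HBG1 led with a model of 4 exons over HBG1 and HBG2 that has a premature stop codon (166), then a 3-exon model with a premature stop (162), its canonical isoform (63.4) and a further model over both gamma genes (59.5). HBG2 had 1 isoform in the table, of 546 nt at 29.4. In that table HBE1 was given 3 isoforms, of 918, 1136 and 877 nt, the first at 85.3 and the last at 7.53, each of which started upstream of the canonical transcript and within the long annotated gene. The isoform of HBD (674 nt, 10.7) has an exon block inside the pseudogene HBBP1. HBB had a model of 628 nt with no level, and HBM had no model. A model assigned to ENSG00000284931 joins exons of HBB and HBG2, without a stop codon, at 3.72 normalised reads. Another, assigned to HBG1, joins exons of HBB and HBG1 and had no level.

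Gene counts and isoform levels ranked these genes differently. Summed over isoforms HBA1 stood at 881 normalised reads and its gene count at 35.8, a ratio of 24.6, and HBA2 at 591 and 36.4 (16.2). The ratio was 20.6 for HBZ (251 and 12.2), 137 for HBE1 (109 and 0.792) and 3.11 for HBG1 (452 and 145). HBQ1, HBD and HBG2 had ratios of 1.03, 0.72 and 0.21. Over 4488 genes with a gene level of at least 5 the median ratio was 0.481, and 1.49% had a ratio of at least 10. HBE1, at a gene level of 0.792, is not among these genes, and its ratio rests on a level near 0. HBA1, HBA2, HBZ and HBE1, which had the high ratios, overlap exons of other annotated genes, HBA1 and HBA2 only on the opposite strand. The canonical transcripts of HBQ1 and HBD overlap none. HBG1, with a ratio of 3.11, shares 37.1%, more than HBA1, HBA2 or HBZ. HBG2, which shares 73.5%, had a low ratio beside the level of the joined gene. The part of shared exons in these ratios was not tested.

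With isoform levels the alpha locus held 74.5% of the level assigned to the 10 members, and 45.9% once the joined genes ENSG00000284931 and ENSG00000239920 were counted with the beta locus. Its share of gene counts, 35.1% in WC and 25.1% in EVs, was lower than either. How much the assignment of shared reads contributes to this gap was not tested.

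**Figure D4:**
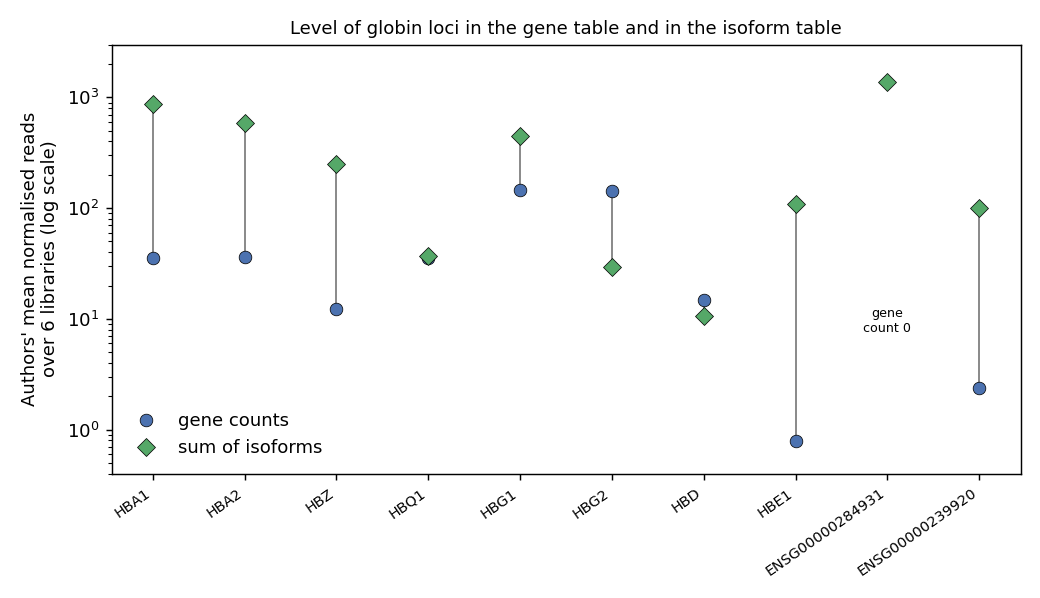
Authors' mean normalised reads over the 6 libraries (vertical axis, log scale) for globin genes and the joined genes ENSG00000284931 and ENSG00000239920, from gene counts (blue circles) and as the sum of isoforms (green diamonds). The levels differ by 24.6 times for HBA1 and meet for HBQ1, and ENSG00000284931 has 1370 normalised reads in isoforms but a gene count of 0.

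Genes that serve or surround the globin genes did not move as a block. Of 89 genes on 7 lists 59 were tested, of which 17 rose and 15 fell, beside 22.8% and 21.4% of all genes. Of the 36 that reached the filter's level in all 6 libraries 11 rose and 7 fell, beside 1562 and 662 of all 4917 such genes. The median change of the 59 was -0.15 on the log2 scale beside -0.13 over all genes. The lists were chosen with earlier results of these data known. With total-count scaling 8 rose and 31 fell. Both the globins and the list of globin mRNA binding proteins had medians above 1.

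Proteins that bind and stabilise globin mRNA had 4 of 5 tested members higher in EVs and none lower, beside 22.8% and 21.4% of all genes, and a median of 1.14 on the log2 scale. All 5 reached the filter's level in every library, and of all such genes 31.8% rose. PABPC1, which coats poly(A) tails, stood at 70.8 ± 7.19 CPM in WC and 242 ± 32.6 CPM in EVs (SD, n = 3 each), a change of 1.76 on the log2 scale (adjusted p = 1.0e-08). PCBP2, which binds the pyrimidine-rich tail of alpha-globin mRNA, went from 10.2 ± 1.05 to 30.8 ± 3.68 CPM (log2 fold change 1.58, adjusted p = 6.8e-05). NCL, nucleolin, rose by 1.04 and ELAVL1, which binds AU-rich elements, by 1.14 on the log2 scale. The 3 EV values lay above the 3 WC values for all 4.

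Among globin partners and haem handling genes 3 of 6 tested rose and 1 fell, beside 22.8% and 21.4% of all genes. AHSP was tested through its EV and FLVCR1 through its WC libraries, which favours these directions. Of the 3 genes at the filter's level in all libraries 2 rose, beside 31.8% of all such genes. AHSP, the chaperone of free alpha chains, stood at 3.78, 2.81 and 1.45 CPM in WC and 8.23, 16.2 and 13.7 CPM in EVs (log2 fold change 2.15, SE 0.49, adjusted p = 0.0008, edgeR). The biliverdin reductases BLVRA and BLVRB rose by 0.69 and 0.42 on the log2 scale. FLVCR1, a haem exporter, stood at 17.3 ± 1.89 CPM in WC and 2.76 ± 1.68 CPM in EVs (SD, n = 3 each), a change of -2.76 on the log2 scale (adjusted p = 0.00013). HMOX1 had no read.

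Of 13 tested genes of haem synthesis and iron supply 3 rose and 4 fell, beside 22.8% and 21.4% of all genes. Their median was -0.10. Of 9 genes at the filter's level in all libraries 2 rose, beside 31.8% of all such genes, and 2 fell. CPOX was tested through its EV libraries and ALAD and SLC11A2 through their WC libraries, which favours the direction of each. CPOX, a mitochondrial enzyme late in the pathway, stood at 1.40 ± 0.781 CPM in WC and 24.3 ± 6.72 CPM in EVs (SD, n = 3 each), a change of 4.07 on the log2 scale (adjusted p = 2.3e-08). ALAS2, the erythroid form of the first enzyme, rose by 1.16 on the log2 scale. TFRC, the transferrin receptor, changed by -1.11 on the log2 scale, and SLC11A2, an iron transporter, fell from 20.3 ± 0.909 to 5.50 ± 3.28 CPM (SD, n = 3 for either group).

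Among 19 tested regulators of globin genes 5 rose and 6 fell, beside 22.8% and 21.4% of all genes. Their median was -0.32. Of 8 genes at the filter's level in all libraries 1 rose, beside 31.8% of all such genes, and 3 fell. LMO2 and TAL1, partners in an erythroid transcription complex, were higher in EVs by 2.88 (adjusted p = 5.0e-06) and 2.25 (adjusted p = 2.3e-05), and MBD2, a reader of methylated DNA, by 1.93 on the log2 scale. These 3 were tested through their EV libraries and IGF2BP3 through its WC libraries, which favours the direction of each. IGF2BP3, an RNA-binding protein of fetal cells, changed by -2.02. BCL11A, a repressor of gamma-globin genes, had no read in any library. GATA1, which drives globin transcription, was at 0.13 and did not pass the threshold (adjusted p = 0.61).

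Of 9 tested red-cell membrane genes 0 rose and 2 fell, beside 22.8% and 21.4% of all genes, with a median of -0.51. RHAG, a membrane channel of the Rhesus family, and EPB41, a skeleton protein, changed by -1.46 and -1.86 on the log2 scale. GYPE and ADD1 were at -0.52 and -0.51 (adjusted p = 0.13 and 0.19). Of the other globins ADGB had a few reads in WC, while MB, CYGB and NGB had none, and none was tested.

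Neighbours of the loci gave 2 that rose and 2 that fell among 7 tested, beside 22.8% and 21.4% of all genes. Both that fell, NPRL3 and FAM234A, were tested through their WC libraries, which favours this direction. OR51B5, an olfactory receptor gene upstream of HBE1, stood at 10.3 to 14.0 CPM in WC and 25.1 to 32.4 CPM in EV libraries (log2 fold change 1.30, SE 0.29, adjusted p = 0.00061). Among isoforms with a level, 3 models assigned to OR51B5 carried globin exons, 2 of HBG2 and 1 of HBE1, at 9.75 to 11.6 normalised reads. Next to the alpha locus POLR3K rose by 0.57, while NPRL3, whose introns hold alpha-globin enhancers, and FAM234A changed by -1.20 and -1.67 on the log2 scale.

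**Figure D5:**
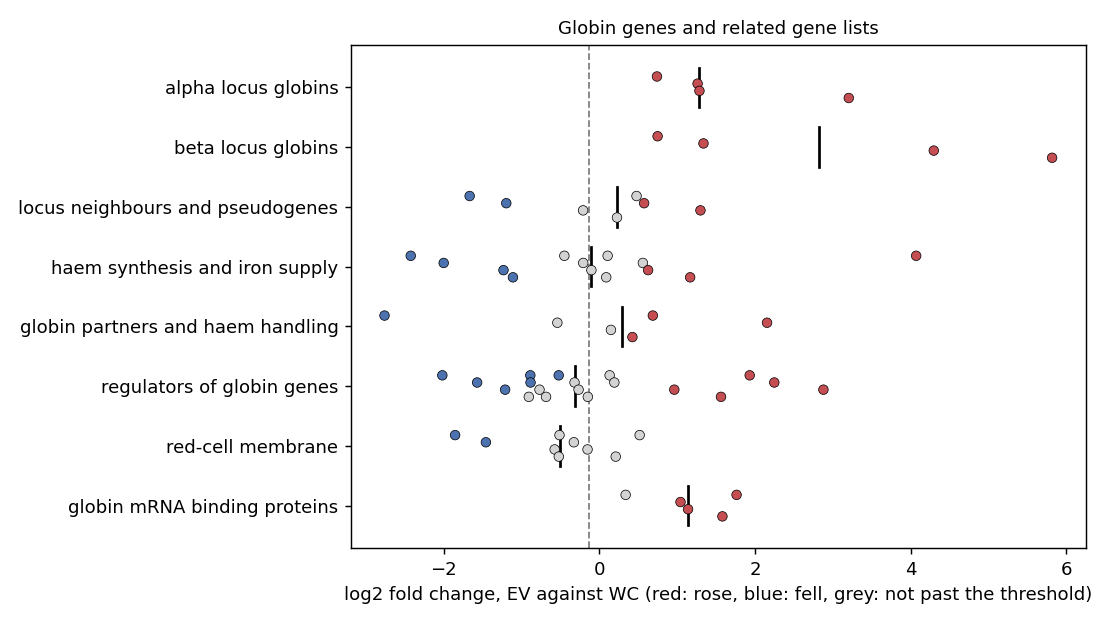
Log2 fold change of EVs against WC (horizontal axis) for each tested gene of the globin loci and of 6 related lists, with red for genes that rose, blue for genes that fell, grey for genes not past the threshold, a black line at each list's median and a dashed line at the median of all genes. All 8 globin points are red, and 4 of 5 globin mRNA binding protein genes are, while the other lists lie on both sides.

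The genes whose profile over the 6 libraries was closest to the mean of the tested globins were 3 processed pseudogenes, an unprocessed pseudogene and a long non-coding RNA. By root mean square difference of centred log2 CPM they were RPL19P21 (0.105), ENSG00000254373 (0.106), ENSG00000236844 (0.107), SPACA7BP (0.110) and ENSG00000269600 (0.111). RPL19P21 had a mean of 10.4 CPM in WC and 41.9 CPM in EVs (log2 fold change 1.97, SE 0.28). The others had log2 fold changes of 1.89 to 2.04. The mean globin profile, which includes HBB and HBZ, is higher in EVs, so genes chosen for closeness to it are too. These changes are a description of the choice and no evidence.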

How the data were processed

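Per the labels and the paper, K-562 whole-cell and EV RNA was sequenced as PCR-amplified nanopore cDNA. The authors mapped reads to hg38 with minimap2 and ran featureCounts over GENCODE v41, and the deposited count table holds their raw counts. The deposited signal values are the authors' counts divided by a DESeq2 size factor, and the isoform levels are the authors' means from FLAIR. Deposited fold changes and p-values are the authors' comparisons and were not used. The exon blocks of the models are other deposited values.

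Of 68247 lines 68201 genes remained after 1 line per ID. Exons came from GENCODE v44. Tests used edgeR 4.0.16 in R 4.3.3 (TMM, its filter on low counts, robust quasi-likelihood fit, Benjamini-Hochberg adjustment), with DESeq2 1.42.0 as an alternative, and were tested on simulated data. SEs are the fold change over the root of F. TPM used the length of all annotated exons of a gene. Ratios had 0.5 added to each count, with scipy 1.17.1 for exact tests. The named genes were all members, up to 4 genes per list with the lowest adjusted p, and 5 genes of the closest profile. GATA1, ALAD, BCL11A, HMOX1 and the list of other globins were named after their values were seen. Members and lists were chosen with earlier results of these data known. Per the paper, the libraries of a replicate, WC and EV, shared a culture and a flow cell, and the correlations of their deviations were 0.062, 0.024 and 0.004. Intervals and limits cover counting error only.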

Additional observations from a re-analysis of the deposited data

Results flagged for a closer look

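Signal outside the gene counts was found for ENSG00000284931, the gene that joins exons of HBG2 and HBG1. Its isoforms summed to 1370 normalised reads, the authors' mean over all 6 libraries, while its gene count was 0 in each library. The isoform table gives no value per library, so no comparison of EVs with WC was made for it here.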

How the results depend on the processing

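Of 96 values of the 8 tested members under alternatives, 69 kept their side of the threshold, 27 lost it and 0 changed sign. HBG2 kept its call in 13 of 13 alternatives. HBZ and HBB kept theirs in 12 of 12 and 7 of 7, but most of these repeat a filter that they passed through the EV libraries. The number of members that rose, 8, was 3 with total-count scaling, 3 of 5 tested with WC libraries thinned to the EV depth, and 3 to 6 when a library was left out, and it stayed within 1.5 times with DESeq2, RLE factors, other filters and the replicate block (7). The block ended the call of HBQ1 among the members and of 1 list gene, NR2C1, and changed no other call in these lists. In the related lists 17 genes rose and 15 fell. These numbers were 8 and 31 under total-count scaling, 9 genes rose after thinning, and 11 to 16 rose and 11 to 14 fell when a library was left out. The cause of these differences was not tested. Divided by the length of all annotated exons, the alpha-locus share was 51.2% in WC and 31.7% in EVs and the globin share 0.015% and 0.0276%. Leaving out a library gave 32.97% to 37.8% and 23.9% to 27.1% for the first and 0.0177% to 0.0212% and 0.0387% to 0.0449% for the second, and pseudogenes moved neither by more than 1 SD. The log2 ratio difference ranged over 3.35 to 3.74 for HBG2 to HBG1, -0.036 to 0.056 for HBA2 to HBA1, 0.42 to 2.26 for HBZ to HBE1 and -1.02 to -0.25 for alpha to gamma genes. Within replicate pairs, an alternative added after the data were seen, the mean differences are the same and no p is below 0.25, the smallest for 3 pairs. Few assigned reads limit HBE1 and HBM in both groups and HBB in WC.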
